A study of Mus musculus with 6 samples.

Results

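Autophagy genes were followed in GC-2spd cells, a mouse spermatocyte-derived line, after exposure to PM2.5, the fine fraction of airborne particulate matter. The set holds 10 genes, Sqstm1, Map1lc3a, Map1lc3b, Gabarapl1, Gabarapl2, Becn1, Atg5, Atg7, Ulk1 and Tfeb, of the 54886 genes listed in each library. They were chosen by symbol, with earlier results of these data known, and each symbol was matched to 1 Ensembl gene identifier through the gene names of GENCODE release M21. RNA was sequenced from 3 control libraries, of untreated cells kept in normal medium (PBS is also named in the study's methods), and from 3 libraries of cells that had been given 100 μg/mL of PM2.5 for 48 h. The particles were a standard urban dust, the line has a BALB/c background, and both groups came from this 1 immortalised line, for which the labels name no further genetic change. No label says whether the 3 libraries of a group came from separate cultures, so the p-values measure only the spread between these libraries, which may be technical.

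Autophagy encloses cytoplasm, damaged organelles or protein aggregates in a double membrane, the autophagosome, and delivers them to the lysosome for breakdown. The ULK1 kinase starts the process, a lipid kinase complex built on Beclin 1 marks the membrane, and ATG7 and ATG5 take part in joining the ubiquitin-like LC3 and GABARAP proteins to it. Receptors such as p62, the product of Sqstm1, tie ubiquitin-marked cargo to LC3, and the transcription factor TFEB turns on genes of autophagy and lysosomes. In the testis, autophagy takes part in hormone synthesis in Leydig cells and in shaping the sperm head. The libraries measure messenger RNA, so neither the lipid-bound form of LC3 nor the turnover of p62 protein was read.

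One control library stood apart from the rest. FPKM is the count of fragments on a gene, scaled for gene length and for sequencing depth. Taken over genes, which do not count as replicates, control replicates 1 and 3 correlated at a Pearson's r of 0.992 on the scale of log2(FPKM + 1), while control replicate 2 correlated with them at 0.742 and 0.745. Mitochondrial genes took 14.5% of the reads in control replicate 2 and 1.65% to 1.95% in the other libraries. On the same scale, PM2.5 replicates 1 and 2 correlated at 0.991, and PM2.5 replicate 3 correlated with them at 0.950 and 0.958. PM2.5 replicate 3 was closer to control replicates 1 and 3, at 0.972 for both. Control replicate 2 was closer to PM2.5 replicates 1 and 2 (0.779 and 0.774) than to its own group. It was furthest from PM2.5 replicate 3, at 0.732. The source of this pattern was not tested. The reads recovered from the FPKM came to 16209352 to 18003201 per library. Of 10 genes that mark spermatocytes and other germ cells, 0 reached a mean FPKM of 1, and Dazl, Spo11, Hormad1 and Piwil1 were at 0 in every library. The summed FPKM of these 10 genes was 0.451 to 2.59 in the control group and 0.0416 to 0.612 in the PM2.5 group. Sycp3 alone reached 2.56 in a control library and was at 0 in another library. The 10 genes together had only 2 to 44 reads per library. Of 6 genes typical of peritubular cells and fibroblasts, 5 reached a mean FPKM of 1. The 6 genes summed to 926 to 1445 FPKM in the control group and 725 to 931 in the PM2.5 group. Vim held the highest single value of these genes, 698 FPKM, and its lowest in any library was 254. The label of a spermatocyte line was therefore not borne out by germ cell transcripts. The macrophage list summed to 1.13 to 15.5 in the control group, where the highest value was that of control replicate 2 and came from Cd68, and to 1.40 to 2.504 in the PM2.5 group. Ptprc, which marks leukocytes in general, and Adgre1, which marks mouse macrophages, were at 0 in every library. Of the 7 Sertoli cell markers none reached a mean FPKM of 1, and of the 6 Leydig cell markers 1 did, Star. The part of these differences in the results was not tested, and in bulk RNA fewer cells of a type cannot be told apart from less RNA per cell. The comparison was therefore made with all 6 libraries and again without control replicate 2.

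With all 6 libraries, 0 of the 10 autophagy genes passed the test for a difference between PM2.5 and control (limma, Benjamini-Hochberg adjusted p under 0.05), against 0.0926% of the 11884 genes tested. An unadjusted p under 0.05 was reached by 0 of the 10 genes and by 3.8% of all genes. The fold changes are differences of log2(FPKM + 1), PM2.5 minus control, and the added 1 understates the change of genes with a low FPKM. All 10 genes had a mean FPKM of at least 1 and were tested. Their median log2 fold change was 0.14, with 6 genes above 0, and the median of all genes tested was 0.02. Without control replicate 2, 0 of the 10 genes passed again, against 0.993% of all genes, and the median was -0.03 for the 10 genes and -0.01 for all genes. Sqstm1 alone then had an unadjusted p under 0.05, a limit passed by 15.9% of all genes.

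**Figure D1:**
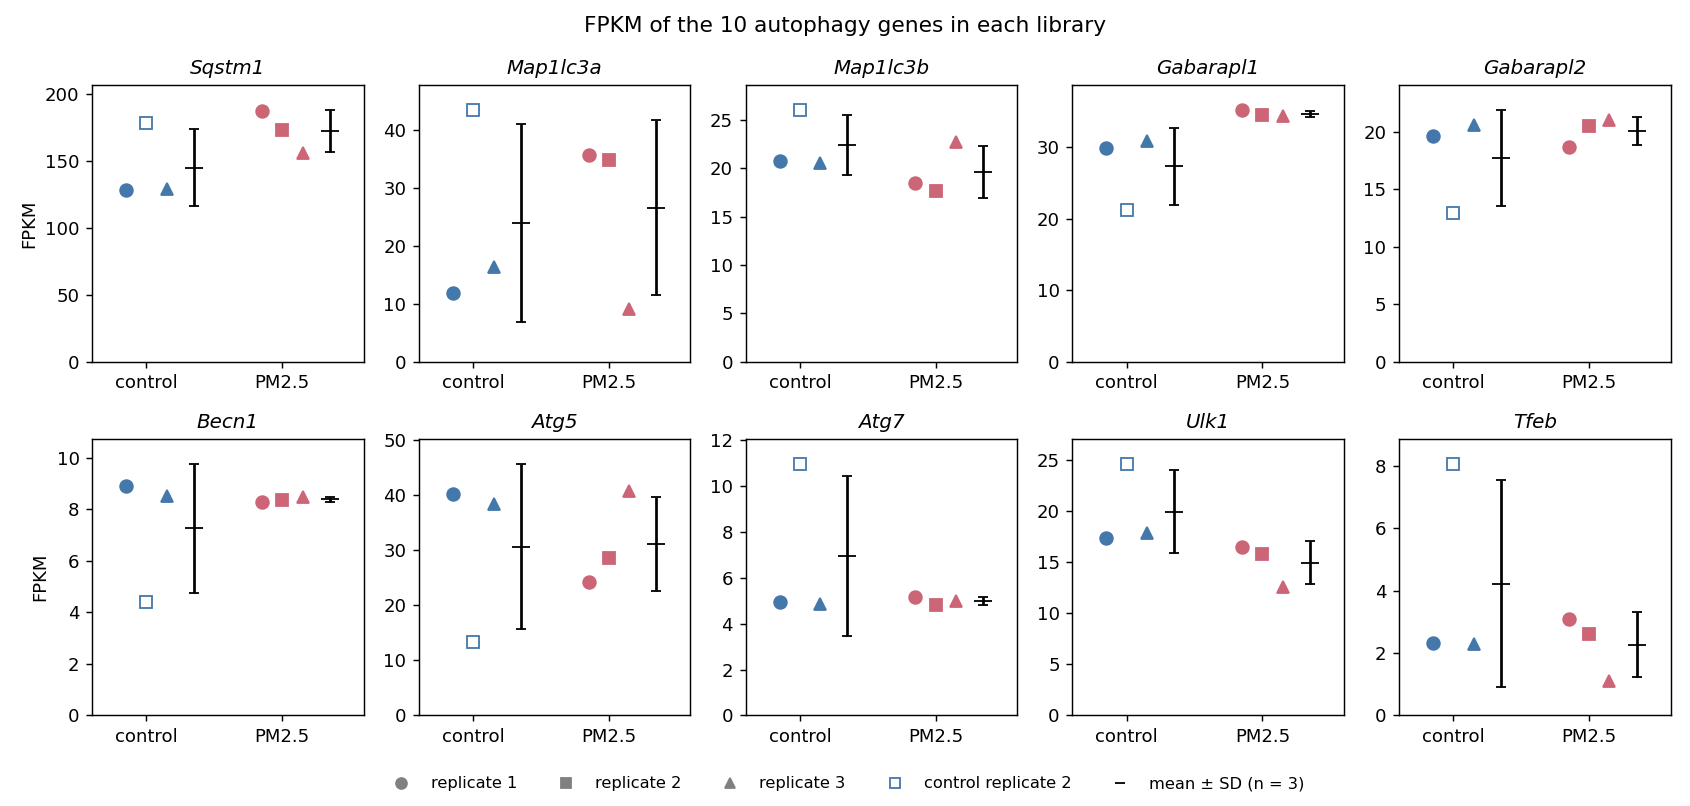
FPKM (vertical axes, each from 0) of the 10 autophagy genes in the 3 control and 3 PM2.5 libraries. Points are libraries, the open square is control replicate 2, and the bar beside each group is the mean ± SD (n = 3). Control replicate 2 lies outside the range of the other control libraries in all 10 panels, as for Atg5 with 13.3 against 38.5 and 40.3.

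The genes covered a wide range of levels. In the control group the median FPKM ran from 2.34 for Tfeb to 129 for Sqstm1. By mean FPKM over all 6 libraries, Sqstm1 stood at percentile 97.9 of the genes tested and Tfeb at percentile 23.2. Between them came Atg5, Gabarapl1, Map1lc3b, Gabarapl2, Ulk1, Map1lc3a, Becn1 and Atg7, in falling order of their control medians. The control ranges of neighbours in this order overlapped, except for Sqstm1 above Atg5 and Map1lc3a above Becn1. In the PM2.5 group Sqstm1 was again the highest, with a median FPKM of 173, and Becn1, Atg7 and Tfeb were again the lowest, with medians of 8.38, 4.99 and 2.61. Map1lc3a came second there, with a median of 34.7, but its range of 9.14 to 35.7 overlapped those of Gabarapl1, Atg5, Gabarapl2, Map1lc3b and Ulk1. Behind these values stood 7763 to 11254 reads per library for Sqstm1 and 112 to 594 for Tfeb.

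Sqstm1 encodes p62, which binds ubiquitin chains and LC3 and also holds KEAP1, the inhibitor of the antioxidant factor NRF2. Its FPKM was 128, 178 and 129 in control replicates 1, 2 and 3, and 188, 173 and 156 in PM2.5 replicates 1, 2 and 3. Control replicate 2 lay within the PM2.5 range. The other control libraries lay below every PM2.5 library, and such a lack of overlap was found in 37.3% of all genes tested. The log2 fold change over all 6 libraries was 0.26 (standard error 0.25, limma adjusted p = 0.875). Without control replicate 2 it was 0.42 (standard error 0.11, 95% confidence interval 0.13 to 0.70, unadjusted p = 0.0139, limma adjusted p = 0.195), which is a PM2.5 mean 1.34 times that of control replicates 1 and 3. Sqstm1 overlaps exons of Mrnip on the opposite strand, and 16.4% of its 31-base sequences are shared with other genes. Mrnip had an FPKM of 0.570 to 1.40. Strand is not stated for the counting, so the reads of overlapping genes cannot be told apart.

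Sqstm1 lies on chromosome 11 from 50199366 to 50210827 on the minus strand of GRCm38. The 250 bases before its RefSeq start, chr11:50210821-50211070 on that strand of GRCm38.p6, are shown because Sqstm1 was the only one of the 10 genes to reach an unadjusted p under 0.05 without control replicate 2. They are printed from 5′ to 3′ beside those of Atg5 (chr10:44268089-44268338, plus strand) and Atg7 (chr6:114670846-114671095, plus strand), which hold the palindrome CACGTG, the core of the element that TFEB binds. Capitals mark CACGTG.
Sqstm1: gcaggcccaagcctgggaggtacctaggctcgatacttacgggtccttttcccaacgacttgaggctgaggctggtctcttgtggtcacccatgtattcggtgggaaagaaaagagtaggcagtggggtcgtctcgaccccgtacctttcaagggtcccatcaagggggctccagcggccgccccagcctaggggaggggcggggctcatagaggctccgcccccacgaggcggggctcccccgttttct
Atg5: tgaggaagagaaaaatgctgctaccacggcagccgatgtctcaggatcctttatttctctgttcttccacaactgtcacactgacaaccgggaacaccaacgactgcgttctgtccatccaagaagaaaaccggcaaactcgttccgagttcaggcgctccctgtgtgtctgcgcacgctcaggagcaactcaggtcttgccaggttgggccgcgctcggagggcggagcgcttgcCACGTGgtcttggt
Atg7: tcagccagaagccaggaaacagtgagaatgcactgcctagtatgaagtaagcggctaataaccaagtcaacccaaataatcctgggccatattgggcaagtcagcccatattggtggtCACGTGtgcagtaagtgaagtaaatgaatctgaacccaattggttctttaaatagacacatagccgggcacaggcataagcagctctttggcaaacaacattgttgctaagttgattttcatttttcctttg
RefSeq entries were found for 8 of the 10 genes, in 10 windows, 3 of them for Tfeb. Map1lc3a and Becn1 had no entry. CACGTG lay in 2 of these windows, 14 bases before the start in Atg5 and 132 bases before it in Atg7, and in 6.02% of all 32851 windows of this length. The window of Atg7 belongs to a start inside the longer gene model of GENCODE. The core of the antioxidant response element, TGACNNNGC on either strand, lay in 0 of the 10 windows and in 10.2% of all windows. The core of the element bound by the aryl hydrocarbon receptor, GCGTG on either strand, lay in 5 of the 10 windows (Atg5, Map1lc3b, Ulk1 and 2 of Tfeb) and in 28.2% of all windows. These matches are descriptions of letters and not of binding.

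The LC3 and GABARAP proteins are the mammalian relatives of yeast ATG8. They are joined to lipid in the growing membrane, where they help it close and hold cargo receptors. Map1lc3a had an FPKM of 11.9, 43.4 and 16.4 in control replicates 1, 2 and 3, and of 35.7, 34.7 and 9.14 in the PM2.5 libraries in the same order. Relative to its level it had the widest spread of the 10 genes within the PM2.5 group (26.5 ± 15.1 FPKM, SD, n = 3), where replicate 3 was below every control library and the other PM2.5 libraries were above control replicates 1 and 3. Its log2 fold change was 0.14 (standard error 0.68, limma adjusted p = 0.952) with all 6 libraries and 0.66 (standard error 0.63, limma adjusted p = 0.642) without control replicate 2, and the interval of the latter ran from -0.95 to 2.27.

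Map1lc3b encodes LC3B, the form most often read in assays of autophagy. Its level was 20.8, 26.0 and 20.5 FPKM in the control libraries, against 18.5, 17.7 and 22.7 FPKM with PM2.5. The groups overlapped with and without control replicate 2, with log2 fold changes of -0.18 (standard error 0.21) and -0.08 (standard error 0.13). Map1lc3b overlaps exons of Zcchc14 on the opposite strand, whose FPKM was 11.04 to 15.2. Of the 31-base sequences of Map1lc3b, 8.64% are shared with other genes, led by Gm6055, Gm12727 and Vmn1r218.

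Gabarapl1 encodes a relative of GABARAP that is known to be under stress-linked transcription factors. The control libraries had 29.9, 21.1 and 30.9 FPKM and the PM2.5 libraries 35.2, 34.5 and 34.4 FPKM. It was 1 of 2 genes of the set in which no PM2.5 library overlapped a control library, a pattern found in 15.2% of all genes tested, and here the PM2.5 libraries were the higher ones. Its log2 fold change was 0.35 (standard error 0.22, limma adjusted p = 0.875) and, without control replicate 2, 0.18 (standard error 0.08, limma adjusted p = 0.364). The antisense gene 1700101I11Rik, which shares 25.2% of the 31-base sequences of Gabarapl1, was listed at 0 to 0.385 FPKM.

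Gabarapl2 encodes GATE-16, which also takes part in traffic within the Golgi apparatus. Its level was 19.6, 12.9 and 20.6 FPKM in the control libraries, against 18.7, 20.5 and 21.04 FPKM with PM2.5. The PM2.5 values lay around control replicates 1 and 3, and the log2 fold change of 0.20 (standard error 0.24) became -0.0021 (95% confidence interval -0.25 to 0.24) without control replicate 2. Other genes share 15.3% of its 31-base sequences, led by the predicted genes Gm3724, Gm6051 and Gm5829, so that its level is uncertain.

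Gabarap, the remaining member of the ATG8 family, belongs to the wider lists rather than to the 10 genes and was the most abundant of the family in every library. Its level was 110, 43.5 and 113 FPKM in the control libraries, against 163, 182 and 148 FPKM with PM2.5. Its groups did not overlap, a pattern found in 15.2% of all genes tested. Its log2 fold change was 0.99 (standard error 0.42, unadjusted p = 0.0539, limma adjusted p = 0.875), and without control replicate 2 it was 0.55 (standard error 0.12, unadjusted p = 0.00585, limma adjusted p = 0.138). The summed FPKM of the 5 family genes was 192, 147 and 202 in the control libraries, against 272, 289 and 235 with PM2.5. Within that sum Gabarap made up 57.3%, 29.6% and 56.2% in the control libraries, against 60.2%, 62.8% and 62.8% with PM2.5. Map1lc3b made up 10.8%, 17.7% and 10.2% in the control libraries, against 6.82%, 6.12% and 9.67% with PM2.5. A share within a library does not depend on the scaling between libraries. The shares of Gabarap and Map1lc3b did not overlap between groups, with differences of 14.3 and -5.36 percentage points (two-sided exact permutation test, n = 3 per group, p = 0.1 for each and 0.25 after adjustment over the 5 genes). With 3 libraries against 3, a p of 0.1 is the smallest this test can give. The differences were 5.22 and -2.95 points when control replicate 2 was left out. The shares of Map1lc3a, Gabarapl1 and Gabarapl2 had exact p-values of 0.8, 0.2 and 0.2.

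**Figure D2:**
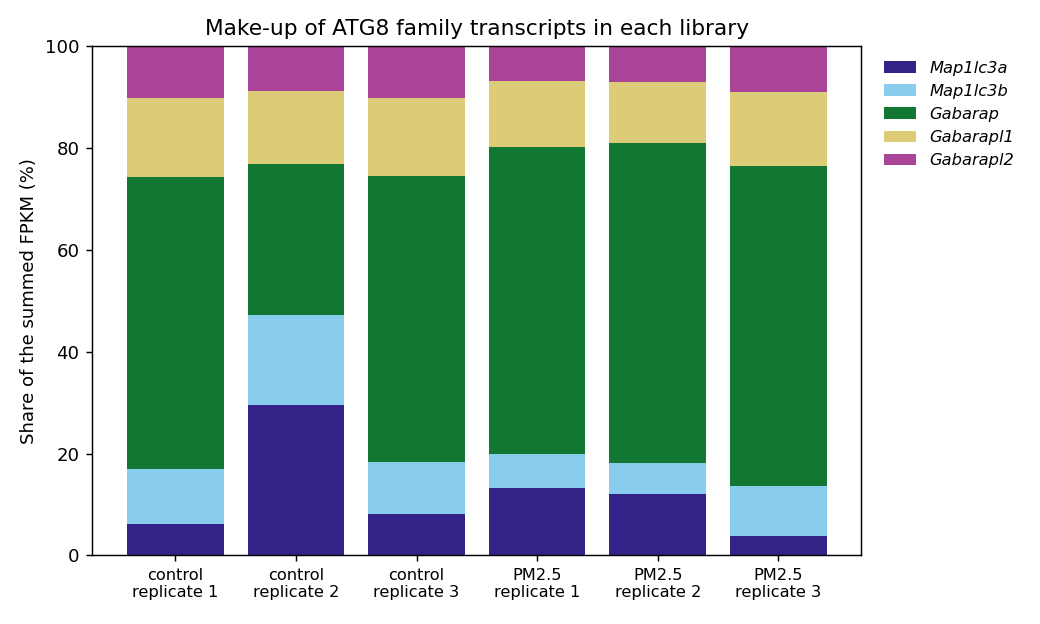
Share of each gene in the summed FPKM of the 5 ATG8 family genes (vertical axis, percent), 1 stacked bar per library. Gabarap fills 56.2% to 62.8% of every bar but that of control replicate 2, where it fills 29.6% and Map1lc3a 29.5%.

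Ulk1 encodes the kinase that receives signals from mTORC1 and AMPK and starts autophagosome formation. Its level was 17.4, 24.6 and 17.9 FPKM in the control libraries, against 16.5, 15.8 and 12.5 FPKM with PM2.5. All PM2.5 libraries lay below all control libraries, the other case of no overlap among the 10 genes. The log2 fold change was -0.39 (standard error 0.23, unadjusted p = 0.139, limma adjusted p = 0.875) and, without control replicate 2, -0.23 (standard error 0.14, 95% confidence interval -0.59 to 0.12).

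Becn1 encodes Beclin 1, the scaffold of the VPS34 lipid kinase complexes. The control libraries had 8.91, 4.39 and 8.52 FPKM, and the PM2.5 libraries 8.29, 8.38 and 8.50 FPKM. Apart from control replicate 2, all libraries lay close together, with PM2.5 lower throughout, a lack of overlap found in 37.3% of all genes tested. Its log2 fold change was 0.23 (standard error 0.28) over all 6 libraries and -0.05 (95% confidence interval -0.26 to 0.16) without control replicate 2. Of the 31-base sequences of Becn1, 40.0% also occur in other genes, mostly Cntd1 on the opposite strand, whose FPKM was 0.0375 to 0.0892.

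Atg7 encodes the E1-like enzyme that activates ATG12 and the LC3 proteins. Its level was 4.96, 10.98 and 4.87 FPKM in the control libraries, against 5.18, 4.82 and 4.99 FPKM with PM2.5. The groups were interleaved once control replicate 2 was left out, and the log2 fold change moved from -0.32 (standard error 0.31) to 0.02 (95% confidence interval -0.20 to 0.24). Atg5, whose product is joined to ATG12 and then helps to attach LC3 to lipid, behaved differently from one library to the next. The control libraries had 40.3, 13.3 and 38.5 FPKM and the PM2.5 libraries 24.3, 28.7 and 40.7 FPKM. PM2.5 replicate 3 was above every control library and the other PM2.5 libraries were between control replicate 2 and the other controls. The log2 fold change of Atg5 was 0.14 (standard error 0.47) with all 6 libraries and -0.36 (standard error 0.23, limma adjusted p = 0.498) without control replicate 2.

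Tfeb encodes the transcription factor that mTORC1 keeps in the cytoplasm of fed cells. It had the lowest median of the set in both groups, with 2.34, 8.08 and 2.28 FPKM in the control libraries, against 3.09, 2.61 and 1.09 FPKM with PM2.5. Control replicate 2 held 3.50 times the mean of the other control libraries, and PM2.5 replicate 3 held the lowest value of all. The log2 fold change was -0.56 (standard error 0.48, limma adjusted p = 0.875) and, without control replicate 2, -0.08 (95% confidence interval -0.87 to 0.71).

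**Figure D3:**
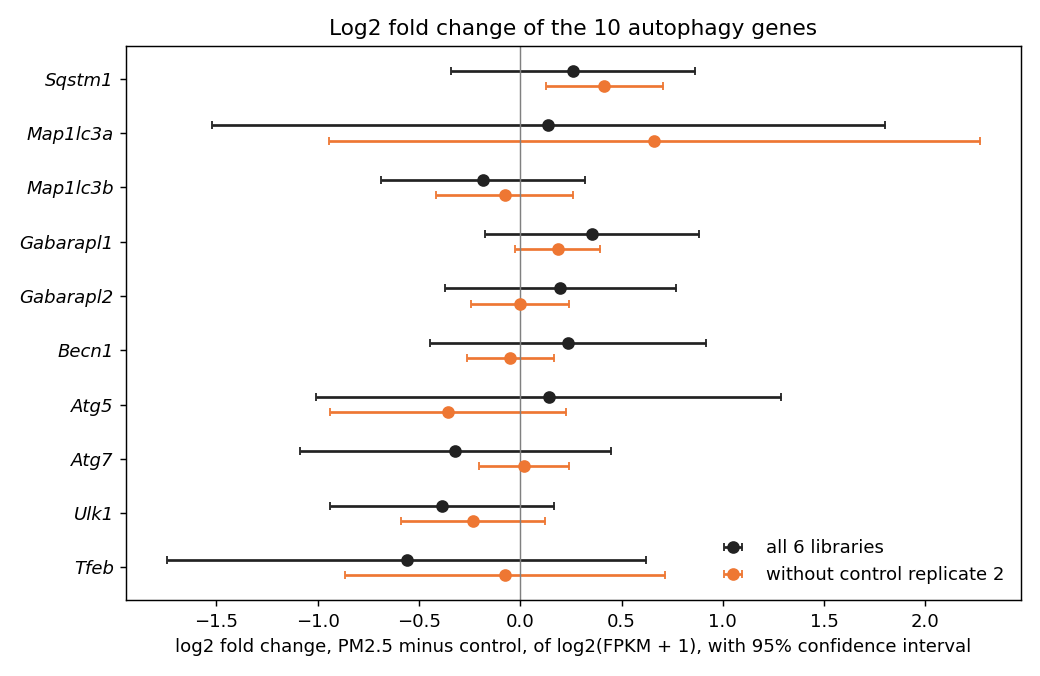
Log2 fold change of log2(FPKM + 1), PM2.5 minus control (horizontal axis), of the 10 autophagy genes from limma, with 95% confidence intervals, for all 6 libraries (black) and without control replicate 2 (orange). The interval of Sqstm1 without control replicate 2, 0.13 to 0.70, is the only one of the 20 that does not hold 0.

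Control replicate 2 lay outside the range of control replicates 1 and 3 in 10 of the 10 genes, above it in 6 and below it in 4. The same held for 96.6% of all genes tested. The median absolute distance from their mean was 0.72 for the 10 genes and 0.81 for all genes, on the scale of log2(FPKM + 1). PM2.5 replicate 3 lay outside the range of the other PM2.5 libraries in 9 of the 10 genes and in 89.9% of all genes, with a median absolute distance of 0.26 and 0.29. The groups did not overlap in 4 of the 10 genes once control replicate 2 was left out (Sqstm1 and Gabarapl1 higher with PM2.5, Ulk1 and Becn1 lower) and in 37.3% of all genes. When PM2.5 replicate 3 was left out as well, 5 of the 10 genes passed the test, Sqstm1, Map1lc3a and Gabarapl1 as higher and Map1lc3b and Atg5 as lower, against 47.1% of all genes. This last comparison was added after the data were seen and rests on 2 libraries in each group. It leaves out the PM2.5 library that was closer in correlation to control replicates 1 and 3 than to its own group.

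The 10 genes were set among 10 wider lists of autophagy genes, which held 103 genes in all, 98 of them with a mean FPKM of at least 1. With all 6 libraries 0 of the 98 genes passed the adjusted threshold, against 0.0926% of all genes tested. An unadjusted p under 0.05 was reached by 1 of them, Gpnmb, against 3.8% of all genes. Without control replicate 2, 1 of the 98 genes passed, Gpnmb, against 0.993% of all genes. An unadjusted p under 0.05 was then reached by 14 genes that were higher with PM2.5 and 5 that were lower. The same limit was reached by 8.23% of all genes as higher and 7.63% as lower. The median log2 fold change of the 98 genes was 0.14 with all 6 libraries and 0.03 without control replicate 2.

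Among 17 autophagy receptors tested, 5 had an unadjusted p under 0.05 and a higher level with PM2.5 without control replicate 2, and 2 a lower level. Of all genes tested, 8.23% reached that limit as higher and 7.63% as lower. The 2 lower receptors, Bnip3 and Bnip3l, are hypoxia-linked and bring mitochondria to autophagosomes. Bnip3 had 94.5, 26.3 and 95.7 FPKM in the control libraries, against 40.9, 45.7 and 68.0 FPKM with PM2.5. Bnip3l had 35.5, 19.5 and 33.2 FPKM in the control libraries, against 17.3, 19.8 and 24.3 FPKM with PM2.5. Control replicate 2 was below the PM2.5 range in Bnip3 and within it in Bnip3l, while the other control libraries were above every PM2.5 library in both. Without control replicate 2, groups did not overlap in 37.3% of all genes tested. The log2 fold changes of Bnip3 and Bnip3l were then -0.91 (limma adjusted p = 0.179) and -0.73 (limma adjusted p = 0.136), and with all 6 libraries -0.30 and -0.47. The higher receptors were Sqstm1, Tex264, a receptor for the endoplasmic reticulum, Ncoa4, which carries ferritin, Phb2, an inner mitochondrial membrane protein, and Stbd1, which binds glycogen. Tex264 had the largest increase of the list without control replicate 2, with a log2 fold change of 0.49 (limma adjusted p = 0.221), and stood at 0.33 with all 6 libraries. Ncoa4 had the largest with all 6 libraries, 0.89 (limma adjusted p = 0.875), and stood at 0.38 without control replicate 2. Phb2 and Stbd1 had 0.48 and 0.37 without control replicate 2, and 0.23 and 0.68 with all 6 libraries. Ncoa4 and Stbd1 did not overlap between groups, a pattern found in 15.2% of all genes tested. Ncoa4 had 4.34, 0.840 and 4.36 FPKM in the control libraries, against 5.23, 5.82 and 6.93 FPKM with PM2.5.

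In the ULK1 kinase complex 0 of 5 genes had a positive log2 fold change without control replicate 2, and the median was -0.28. In that comparison 5703 of all 11884 genes tested were positive. Ulk2, a kinase related to ULK1, and Atg101, a subunit that steadies the complex, had an unadjusted p under 0.05, with log2 fold changes of -0.36 (limma adjusted p = 0.216) and -0.28 (limma adjusted p = 0.215). Of all genes tested, 7.63% reached that limit as lower. Rb1cc1, which encodes the scaffold FIP200, had the lowest value, -0.41 (limma adjusted p = 0.380). With all 6 libraries the median of the complex was -0.04, and Ulk2 was at 0.11, Atg101 at -0.04 and Rb1cc1 at -0.06. Among the 8 genes of the Beclin 1 and VPS34 complexes none had an unadjusted p under 0.05 in either comparison. Nrbf2 had the largest value with all 6 libraries, 0.57, against 0.12 without control replicate 2. Rubcn, an inhibitor of the complex, had the largest without control replicate 2, 0.17, against 0.40 with all 6 libraries. Atg14, which directs the complex to autophagy, was the lowest in both, with -0.05 and -0.24.

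The conjugation machinery and the ATG4 proteases, 11 genes, gave no unadjusted p under 0.05 either. Atg12 at 0.31 and Atg16l2 at -0.47 were the extremes with all 6 libraries, and Atg4d at 0.21 and Atg5 at -0.36 without control replicate 2. In the other comparison Atg12 stood at -0.24, Atg16l2 at -0.011, Atg4d at 0.23 and Atg5 at 0.14. Of 9 genes for ATG9, ATG2 and WIPI proteins, which supply membrane, Wdr45 had an unadjusted p under 0.05 without control replicate 2. Among all genes tested, 7.63% reached that limit as lower. The log2 fold change of Wdr45 was -0.46 (limma adjusted p = 0.232). With all 6 libraries it was -1.01 (unadjusted p = 0.0788, limma adjusted p = 0.875), and control replicate 2 had 19.3 FPKM, the other control libraries 5.39 and 5.65 and the PM2.5 libraries 3.30 to 4.53. Atg9a at 0.82 was the highest of these with all 6 libraries, where control replicate 2 had 0.843 FPKM and the other libraries 8.33 to 9.90, and was at 0.019 without control replicate 2. Wipi1 at 0.09 was the highest without control replicate 2, against -0.24 with all 6 libraries. Of 13 genes for fusion with the lysosome, Vps33a had an unadjusted p under 0.05 without control replicate 2. Among all genes tested, 8.23% reached that limit as higher. The log2 fold change of Vps33a was 0.35 (limma adjusted p = 0.167). With all 6 libraries it was 0.76 (limma adjusted p = 0.875), with no overlap between groups, as in 15.2% of all genes tested. Vps16 was the lowest with all 6 libraries, at -0.64, against 0.09 without control replicate 2, with 71.4 FPKM in control replicate 2 and 13.5 to 17.4 elsewhere. Vamp8 at 0.41 and Snap29 at -0.16 were the extremes without control replicate 2, and with all 6 libraries they stood at 0.25 and 0.06.

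**Figure D4:**
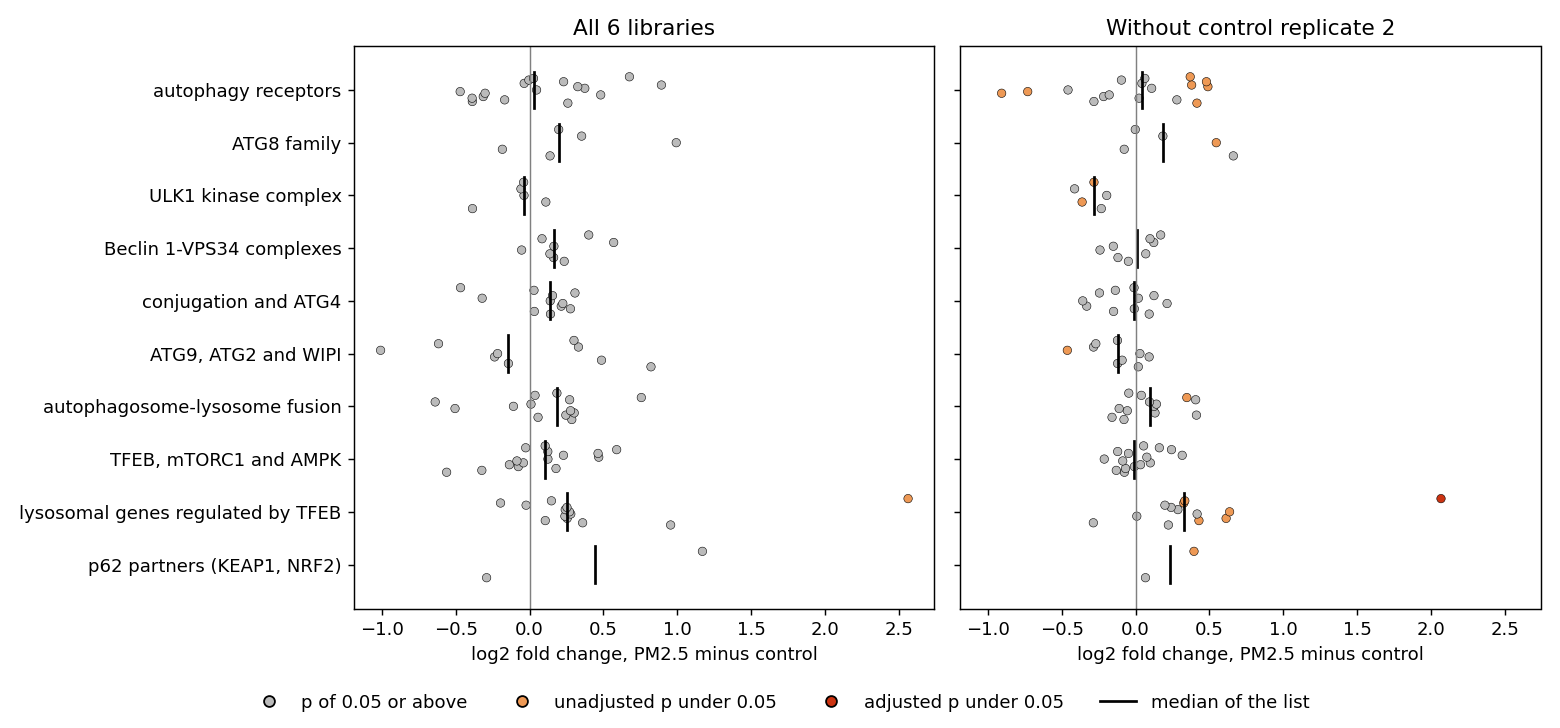
Log2 fold change of log2(FPKM + 1), PM2.5 minus control (horizontal axes), of the 98 autophagy genes tested, 1 point per gene and 1 row per list, with all 6 libraries (left) and without control replicate 2 (right). Gray points have an unadjusted p of 0.05 or above, orange points one under 0.05, the red point an adjusted p under 0.05 (Gpnmb, 2.07), and black bars are medians. The lysosomal row has a median of 0.25 on the left and 0.33 on the right.

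In the list of TFEB family members and mTORC1 and AMPK regulators, 0 of 15 genes had an unadjusted p under 0.05 in either comparison. Rragc at 0.59 and Tfeb at -0.56 were the extremes with all 6 libraries, and Flcn at 0.32 and Prkaa1 at -0.21 without control replicate 2. In the other comparison Rragc stood at 0.24, Tfeb at -0.08, Flcn at 0.23 and Prkaa1 at 0.12. The lysosomal genes known as TFEB targets were counted over a shortened list, and the list was chosen with results of these data known. Of 13 tested, 11 had a positive log2 fold change with all 6 libraries (median 0.25) and 12 without control replicate 2 (median 0.33). Among all 11884 genes tested 6166 and 5703 were positive. Without control replicate 2, 6 of the 13 had an unadjusted p under 0.05, all as higher, against 8.23% of all genes. These were Gpnmb, Hexa, Ctsa, Mcoln1, Tpp1 and Clcn7. With all 6 libraries it was 1 of 13, Gpnmb, against 1.92% of all genes as higher.

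Gpnmb, a membrane glycoprotein of lysosomes and melanosomes, had 3.91, 0.663 and 3.41 FPKM in the control libraries, against 18.9, 18.5 and 18.1 FPKM with PM2.5. The PM2.5 libraries lay close together, far above all control libraries. The log2 fold change was 2.56 (standard error 0.43, limma adjusted p = 0.293) and, without control replicate 2, 2.07 (standard error 0.09, limma adjusted p = 0.00757). That call was lost when control replicate 1, control replicate 3, PM2.5 replicate 1 or PM2.5 replicate 2 was left out too, with adjusted p-values of 0.0601 to 0.176 and log2 fold changes of 1.99 to 2.15. Hexa, a subunit of the enzyme that breaks down ganglioside, had 34.3, 71.9 and 31.9 FPKM in the control libraries, against 52.9, 51.2 and 51.8 FPKM with PM2.5. Without control replicate 2 its log2 fold change was 0.64 (standard error 0.09, limma adjusted p = 0.0603), and with all 6 libraries 0.27 (standard error 0.34). Ctsa, a protective protease, had 28.4, 61.5 and 28.9 FPKM in the control libraries, against 48.1, 47.5 and 38.3 FPKM with PM2.5. Its log2 fold change was 0.61 (limma adjusted p = 0.132) without control replicate 2 and 0.25 with all 6 libraries. Without control replicate 2, groups did not overlap in 37.3% of all genes tested. In Hexa and Ctsa control replicate 2 was the highest of all 6 libraries, and the other control libraries were the lowest. The same order held for Mcoln1, a calcium channel, Tpp1, a peptidase, and Clcn7, a chloride transporter. Their log2 fold changes without control replicate 2 were 0.43, 0.33 and 0.33, and with all 6 libraries 0.11, 0.15 and -0.20. Lamp2, a main protein of the lysosomal membrane, was the only one of the 13 with a value under 0 without control replicate 2, at -0.29 (limma adjusted p = 0.557), and with all 6 libraries it was 0.36 (limma adjusted p = 0.879).

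**Figure D5:**
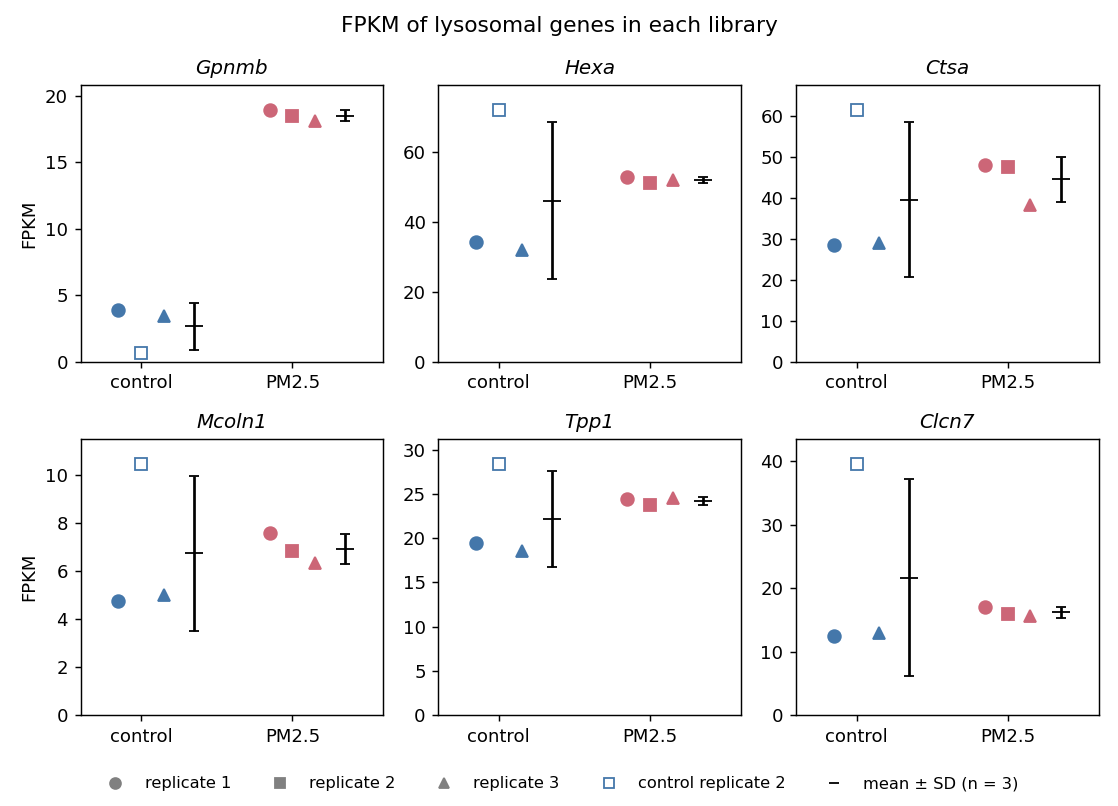
FPKM (vertical axes, each from 0) of the 6 lysosomal genes with an unadjusted p under 0.05 without control replicate 2, in the 3 control and 3 PM2.5 libraries. Points are libraries, the open square is control replicate 2, and the bar beside each group is the mean ± SD (n = 3). Gpnmb lies higher in every PM2.5 library than in every control library, and in the other 5 genes control replicate 2 is the highest library.

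Of the 2 genes that tie p62 to NRF2, Nfe2l2, which encodes NRF2, had 22.1, 3.62 and 22.1 FPKM in the control libraries, against 27.3, 28.5 and 32.6 FPKM with PM2.5. The groups did not overlap, as in 15.2% of all genes tested. The log2 fold change of Nfe2l2 was 1.17 (standard error 0.65, limma adjusted p = 0.875) and, without control replicate 2, 0.40 (standard error 0.11, unadjusted p = 0.0142, limma adjusted p = 0.198). Keap1 had 13.1, 29.1 and 13.5 FPKM in the control libraries, against 17.5, 17.0 and 9.17 FPKM with PM2.5. These groups overlapped, with log2 fold changes of -0.29 (standard error 0.40) and 0.07 (standard error 0.29). The 5 listed genes under a mean FPKM of 1, which were not tested, were Ccpg1, Atg9b, Rragd, Ctsf and Atp6v0d2.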

How the data were processed

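The authors used an NEBNext Ultra kit and an Illumina Novaseq, and deposited FPKM for each gene and library, already scaled between libraries. The submitters' processing notes name HISAT2 2.0.5, featureCounts 1.5.0-p3 and the build mm9, and the authors tested expression with DESeq2. Lengths, positions and names were taken here from GENCODE M21 on GRCm38, since FPKM multiplied by those exon lengths fell within 0.05 of a whole read for 98.1% to 98.4% of values under 50 reads in each library. Promoter windows came from RefSeq on GRCm38.p6.

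Groups and replicate numbers came from the sample labels. limma 3.58.1 (R 4.3.3, statmod 1.5.0, trend and robust options) was fitted on log2(FPKM + 1) to the 11884 genes whose mean FPKM reached 1, with all 6 libraries and without control replicate 2, and p-values were adjusted over all of them. It was also run on simulated reads in which no library stood apart, unlike control replicate 2 here. Alternatives were another pseudocount, other filters, scaling to recovered totals, quantile normalization, voom on recovered reads, no robust option, a fold change limit, a replicate block and leaving out each library. The genes and lists were chosen with earlier results of these data known. Some genes of the lysosomal list are not reported here and were left out of its counts. Named from each list were genes with an unadjusted p under 0.05 in either comparison and those with the largest increase and decrease. Star, Cd68, Sycp3 and Vim were named after their values were seen. Sequence sharing is the percentage of 31-base sequences found in other genes. Figures were drawn with matplotlib 3.10.9.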

Additional observations from a re-analysis of the deposited data

How the results depend on the processing

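The count of genes that passed the adjusted threshold with all 6 libraries, 11, was 0 without a filter on low FPKM (875 at an unadjusted p under 0.05), 0 with a mean FPKM of at least 5 (254), 0 with voom (423) and 6 after scaling to recovered totals, and it lay between 0 and 118 when 1 library was left out, with 118 without control replicate 2. The count of the 10 autophagy genes was 0 in each of these, and that of the wider lists 0 to 1. Scaling to recovered totals moved the median log2 fold change of all genes from 0.02 to 0.13. Leaving out 1 library, the log2 fold changes of Map1lc3a (-0.23 to 0.75), Atg5 (-0.36 to 0.41), Atg7 (-0.50 to 0.019), Gabarapl2 (-0.0021 to 0.31) and Becn1 (-0.049 to 0.39) changed sign, for the last 3 only without control replicate 2. With all 6 libraries, 17 other named genes were followed through the alternatives, and of these Atg14 changed sign (0.021 after scaling to recovered totals, -0.24 to 0.090 leaving out 1 library), and so did, only without control replicate 2, Ulk2 (-0.36 to 0.37), Atg12 (-0.24 to 0.59), Vps16 (-1.03 to 0.094), Clcn7 (-0.47 to 0.33) and Keap1 (-0.48 to 0.067). Of the other genes named, Lamp2 (0.36 to -0.29), Prkaa1 (0.12 to -0.21), Snap29 (0.06 to -0.16) and Wipi1 (-0.24 to 0.09) also changed sign from all 6 libraries to the fit without control replicate 2. The difference in the Map1lc3a share of the ATG8 family was -4.92 percentage points and lay between -9.13 and 2.53 when 1 library was left out, positive only without control replicate 2. The causes were not tested.

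In the fit without control replicate 2, leaving out a further library gave 0 to 5602 genes and 0 to 5 of the 10 autophagy genes, both highest without PM2.5 replicate 3. There Tfeb (-0.27 to 0.22), Atg7 (-0.0035 to 0.040) and Gabarapl2 (-0.036 to 0.046) changed sign, and Gabarapl2 was 0.010 after scaling to recovered totals. Of 100 alternative values of the 10 genes without control replicate 2, 90 kept their direction and side of the threshold, as did 130 of 139 with all 6 libraries. Hexa passed the threshold without control replicate 2 with voom (adjusted p = 0.0474).

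The shared replicate numbers were checked as a pairing. Deviations from the group means correlated at -0.28, 0.18 and 0.25 for numbers 1, 2 and 3, and control replicate 1 was closest to PM2.5 replicate 3 (0.29). Deviations within a group depend on one another, and control replicate 2 stands apart, so this check can neither show nor exclude a pairing. With the replicate block 0 genes passed (335 at an unadjusted p under 0.05), 0 of them among the 10 autophagy genes, whose median stayed at 0.14.

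Tfeb had the fewest reads of the 10 genes in any library, at 112 in PM2.5 replicate 3. With 3 libraries a group, the intervals of the 10 genes with all 6 libraries are wide, as for Map1lc3a at -1.52 to 1.80. That of Map1lc3a stayed wide without control replicate 2, at -0.95 to 2.27. The source of the spread was not tested.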
